A study of Homo sapiens with 36 samples.

Results

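The 48 genes described here are interferon-stimulated genes, chosen by name from a list, with no measured value in the rule. Earlier results of these data were known when the 48 genes were chosen. They were looked up among the 29744 genes of the deposited table, and 47 of the 48 passed the filter on low counts, out of 14988 genes tested. The gene that did not pass was IRF7, a master regulator of type I interferon, which had at most 2 counts in any library and 0 in 35 of the 36. The cells were BxPC-3, a human line from a pancreatic adenocarcinoma, labelled as wild type in all groups. They were kept for 2 or 4 h in 3 µM of TRAP1, of TRAP-1-NegB, of TRAP-1-NegP, of JQ1 or of MS78, or in DMSO. Each of the 12 groups of compound and time had 3 libraries of polyadenylated RNA. TRAP1 is here the compound and not the mitochondrial chaperone gene of that symbol. JQ1 inhibits the BET bromodomain proteins, readers of acetylated histones. No meaning is given in the labels for NegB or NegP. The study has only this line, and the labels do not say whether replicates came from separate cultures, so p-values measure the spread between these libraries, which may be technical.

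Interferons bind receptors at the cell surface, whose JAK kinases phosphorylate STAT proteins. After type I or type III interferon, a complex of STAT proteins with IRF9, called ISGF3, binds a promoter sequence known as the interferon-stimulated response element and switches on genes whose products block viral replication. Interferon gamma acts through a STAT dimer that binds a different sequence, the gamma-activated site, and strongly induces genes of class I antigen presentation. Epithelial tumour cells often express part of this set with no interferon added, and no interferon was among the treatments here.

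The libraries held 15288688 to 26608325 estimated counts in total, and the 47 tested genes and IRF7 together took 0.33% to 0.373% of them. Levels are given as CPM, the counts of a gene scaled to a common library size after TMM scaling. Differences are log2 fold changes with their standard error (SE) from 1 edgeR quasi-likelihood fit to all 36 libraries. Both are relative to the other genes of a library. The TMM factors were 0.837 to 0.862 with TRAP1 at 4 h and 1.01 to 1.03 with DMSO at 4 h. A gene was called changed at a Benjamini-Hochberg adjusted p under 0.05 over all genes tested in that comparison. In bulk RNA, fewer cells that express a gene and less RNA per cell cannot be told apart. The cell type was checked on its markers, and all 9 epithelial and ductal markers were above 10 TPM in every library. Markers of other cell types were lower in every library. Under 1 TPM everywhere were 5 of 7 haematopoietic, 3 of 3 plasmacytoid dendritic, 4 of 5 fibroblast and 3 of 4 endothelial genes. The others reached at most 5.03 TPM (CD14), 3.74 TPM (CD3E), 2.40 TPM (COL1A1) and 3.30 TPM (CDH5). PTPRC, which marks all leukocytes, was at most 0.0419 TPM. Library 1 of TRAP1 at 4 h, with 1287 tested genes at 0 counts, and library 1 of MS78 at 2 h stood apart from their groups, and it is said below where a call of a gene named there was lost without them.

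The response element was searched in the RefSeq promoter windows (GRCh38.p14, 250 bases before to 50 after each promoter's start), which held 42 of the 48 genes. Some genes had more than 1 window (35116 windows for 27305 genes), and a gene counted if any of its windows had a match. Its letters were taken as GAAA NN GAAA, with N for any base, or on the opposite strand TTTC NN TTTC, and 25 of the 42 genes (59.5%) had at least 1 match, against 1195 of all 27305 genes (4.38%). The letters of the gamma-activated site, TTCNNNGAA, were in 12 of the 42 (28.6%), against 2560 of all genes (9.38%). Overlapping matches were counted for both motifs. The stretches below are examples picked from genes that have a match: B2M and ISG15 rose, IFIT5, DTX3L and IRF9 fell, and IFIT1 lies beside IFIT5. IFIT2, which rose most at 4 h, had no window. XAF1, UBE2L6 and ADAR, which fell, had no match to either motif in their windows. The same held for STAT2, TRIM25, HLA-B and HLA-C, which rose with TRAP1 and TRAP-1-NegP at 4 h. Capitals mark matches to the response element, except in IRF9, where they mark the gamma-activated letters. All are on the plus strand, 5′ to 3′, at chr1:1013307-1013422 (ISG15), chr15:44711327-44711486 (B2M), chr10:89392433-89392545 (IFIT1), chr10:89414546-89414575 (IFIT5), chr3:122564318-122564347 (DTX3L) and chr14:24161195-24161224 (IRF9).
ISG15: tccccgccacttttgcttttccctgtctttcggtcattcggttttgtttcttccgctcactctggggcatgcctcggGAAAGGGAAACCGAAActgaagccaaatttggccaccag
B2M: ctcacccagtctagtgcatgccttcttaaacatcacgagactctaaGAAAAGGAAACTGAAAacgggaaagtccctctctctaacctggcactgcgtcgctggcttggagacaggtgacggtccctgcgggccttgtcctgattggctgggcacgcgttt
IFIT1: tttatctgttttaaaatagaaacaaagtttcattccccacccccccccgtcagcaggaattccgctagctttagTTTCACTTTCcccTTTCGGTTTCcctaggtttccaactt
IFIT5: tagTTTCGATTTCttaagTTTCAGTTTCtg
DTX3L: acctccagggaagcGAAACTGAAActttgc
IRF9: acgtgatTTCTGGGAAaaggccctccctgg
In ISG15 and in B2M 2 matches overlap, and in IFIT1 2 matches lie 3 bases apart. The window of IFIT5 holds 3 matches, of which the stretch shows 2. The DTX3L match at chr3:122564332-122564341 is the same 10 bases that a window of PARP9 holds on the other strand. A match is a description of letters only. A response element match was in 7 of 11 genes that were higher and in 11 of 18 that were lower with TRAP1 at 4 h, and in 7 of 13 that were not called. With TRAP-1-NegP at 4 h it was in 3 of 7 higher, 8 of 18 lower and 14 of 17 not called. With JQ1 at 4 h the numbers were 3 of 5, 9 of 18 and 13 of 19.

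**Figure D1:**
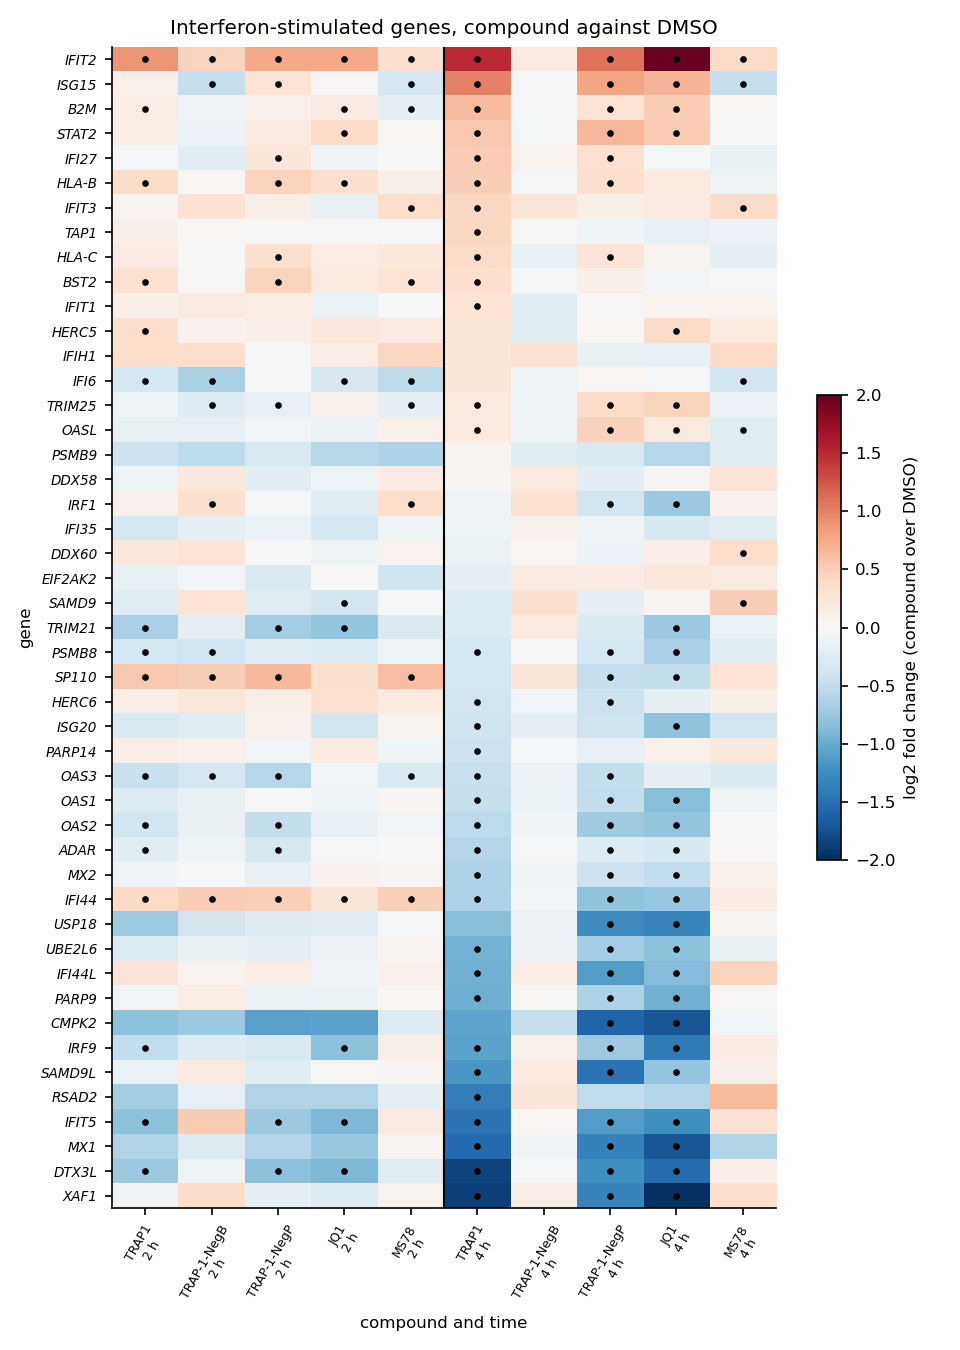
Log2 fold change over DMSO of the 47 tested genes (rows, ordered by the TRAP1 effect at 4 h) for each compound at 2 h (left block) and 4 h (right block). Red is higher and blue is lower than DMSO, colours saturate at 2, and dots mark an adjusted p under 0.05. At 4 h TRAP1, TRAP-1-NegP and JQ1 have a few red rows at the top and many blue rows at the bottom, while TRAP-1-NegB has no dot.

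After 4 h the genes did not move as a block: TRAP1, TRAP-1-NegP and JQ1 each raised some interferon-stimulated genes and lowered more. With TRAP1, 13 of the 47 rose and 20 fell, in a comparison in which 22.2% of all genes tested were called higher and 24.5% lower. With TRAP-1-NegP 9 rose and 21 fell, against 18.6% and 18.9% of all genes. With JQ1 7 rose and 21 fell, against 24.3% and 24.6% of all genes. The median log2 change of the 47 genes was −0.28 with TRAP1, −0.29 with TRAP-1-NegP and −0.32 with JQ1, against −0.02, −0.02 and −0.01 over all genes. These 3 comparisons share their DMSO libraries, so their likeness is no independent evidence. Both directions are set out below by what the genes do.

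The 2 ISGF3 genes on the list moved in opposite directions. IRF9, the DNA-binding partner in ISGF3, had 15.1, 11.3 and 17.1 CPM with TRAP1 at 4 h, 19.3, 16.4 and 19.5 CPM with TRAP-1-NegP and 11.7, 12.3 and 10.0 CPM with JQ1, against 27.9, 33.2 and 29.7 CPM with DMSO. Every library of these compounds lay below every DMSO library, and IRF9 fell by 1.07 ± 0.14 (SE) with TRAP1, by 0.72 ± 0.14 with TRAP-1-NegP and by 1.42 ± 0.14 with JQ1 on the log2 scale (edgeR adjusted p = 4.9e-09, 2.5e-05 and 2e-12). STAT2, the ISGF3 subunit that carries the activation domain, had 35.6, 39.5 and 38.4 CPM with TRAP1, 42.6, 45.3 and 36.8 CPM with TRAP-1-NegP and 42.0, 31.1 and 38.2 CPM with JQ1, against 26.4, 23.9 and 28.1 CPM with DMSO. It rose by 0.53 ± 0.11, 0.67 ± 0.11 and 0.51 ± 0.11 with the 3 compounds in that order, with no overlap between groups. IRF1, which can bind the response element on its own and is induced by interferon gamma, had 51.2, 48.9 and 55.2 CPM with TRAP1, 39.8, 45.1 and 42.4 CPM with TRAP-1-NegP and 33.1, 34.6 and 31.4 CPM with JQ1, against 55.0, 56.4 and 55.3 CPM with DMSO. It fell by 0.75 ± 0.11 with JQ1 and by 0.39 ± 0.10 with TRAP-1-NegP (edgeR adjusted p = 2.9e-08 and 0.0023) and was not called with TRAP1.

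The IFIT genes encode proteins that bind foreign or unmethylated RNA, and they lie on chromosome 10 within 119.0 kb (hg38), in the order IFIT2, IFIT3, IFIT1, IFIT5. At 4 h they moved in different directions. IFIT2 had 91.2, 91.0 and 82.1 CPM with TRAP1, 63.6, 69.0 and 67.1 CPM with TRAP-1-NegP and 127, 127 and 119 CPM with JQ1, against 33.6, 31.7 and 28.9 CPM with DMSO. The lowest of these compound libraries stood far above the highest DMSO library, and IFIT2 rose by 1.49 ± 0.08, 1.09 ± 0.08 and 1.98 ± 0.08 log2 with TRAP1, TRAP-1-NegP and JQ1, the highest rise of the 47 genes with each of the 3. IFIT5 had 3.79, 2.94 and 3.49 CPM with TRAP1, 3.67, 3.84 and 5.66 CPM with TRAP-1-NegP and 3.59, 4.70 and 3.74 CPM with JQ1, against 10.9, 9.18 and 8.30 CPM with DMSO. It fell by 1.47 ± 0.22, 1.11 ± 0.22 and 1.23 ± 0.22 log2, again with no overlap. IFIT3 had 54.7, 63.9 and 53.7 CPM with TRAP1, 48.7, 50.6 and 40.1 CPM with TRAP-1-NegP and 53.5, 45.6 and 46.6 CPM with JQ1, against 40.9, 41.3 and 46.8 CPM with DMSO. IFIT3 and IFIT1, which lie between IFIT2 and IFIT5, rose with TRAP1 (0.42 ± 0.10 and 0.27 ± 0.10) and were not called with TRAP-1-NegP or JQ1. IFIT1 had 49.9, 37.9 and 41.7 CPM with TRAP1, 36.5, 34.2 and 38.7 CPM with TRAP-1-NegP and 38.3, 38.7 and 35.6 CPM with JQ1, against 36.9, 35.9 and 34.5 CPM with DMSO. Its call rests on library 1 of TRAP1: without it the change was 0.16 and was no longer called, and it was also lost without DMSO library 2 or 3.

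**Figure D2:**
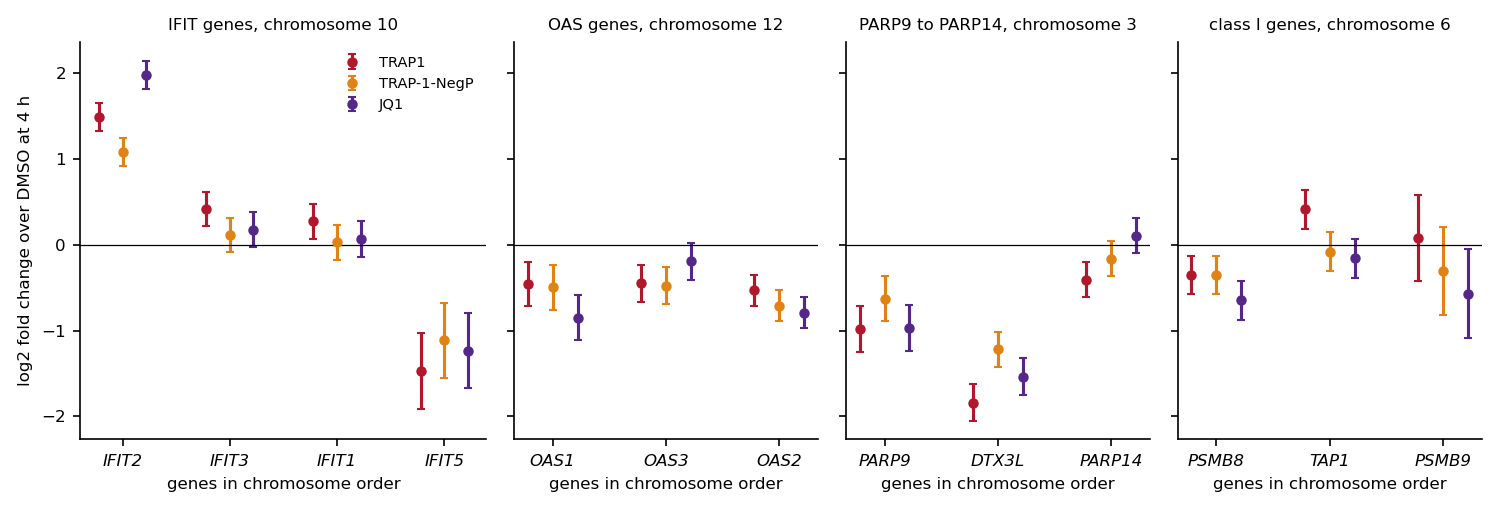
Log2 fold change over DMSO at 4 h, with 95% intervals, of interferon-stimulated genes that share a region, in chromosome order, for TRAP1, TRAP-1-NegP and JQ1. Within the IFIT cluster IFIT2 lies above 1 and IFIT5 below −1 with all 3 compounds, whereas the OAS genes all lie below 0.

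OAS1, OAS3 and OAS2, which make the oligoadenylate messenger that activates RNase L, lie within 104.8 kb on chromosome 12. OAS1 had 26.7, 25.4 and 24.6 CPM with TRAP1, 25.8, 24.4 and 24.7 CPM with TRAP-1-NegP and 21.3, 16.6 and 20.7 CPM with JQ1, against 35.0, 33.6 and 37.0 CPM with DMSO. All 9 libraries of these compounds lay below DMSO. OAS1 and OAS2 fell with TRAP1 (−0.46 ± 0.13 and −0.53 ± 0.09), TRAP-1-NegP (−0.50 ± 0.13 and −0.71 ± 0.09) and JQ1 (−0.85 ± 0.13 and −0.79 ± 0.09). OAS3 had 32.7, 33.0 and 26.3 CPM with TRAP1, 29.8, 28.1 and 32.7 CPM with TRAP-1-NegP and 35.2, 35.9 and 39.1 CPM with JQ1, against 38.6, 41.5 and 45.8 CPM with DMSO, and only JQ1 overlapped with DMSO. It fell with TRAP1 and TRAP-1-NegP (−0.45 ± 0.11 and −0.48 ± 0.11) and was not called with JQ1. OASL, a relative without synthetase activity that lies outside this cluster, rose with TRAP1, TRAP-1-NegP and JQ1 (0.19, 0.46 and 0.19, each ± 0.07). The OASL call was lost in 3 of the fits that left out a library with TRAP1 and in 2 with JQ1, where it was also lost with no count filter.

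MX1 and MX2, dynamin-like GTPases that trap viral nucleocapsids, both fell at 4 h. MX1 had 4.32, 0.736 and 2.23 CPM with TRAP1, 2.81, 1.52 and 4.15 CPM with TRAP-1-NegP and 2.45, 1.48 and 2.59 CPM with JQ1, against 7.99, 7.27 and 6.10 CPM with DMSO. The compound libraries varied among themselves and all lay below the lowest DMSO library. The fall was 1.55 ± 0.36, 1.34 ± 0.36 and 1.71 ± 0.37 log2. XAF1, a proapoptotic antagonist of the inhibitor XIAP, had 2.62, 2.02 and 3.03 CPM with TRAP1, 3.27, 3.89 and 3.85 CPM with TRAP-1-NegP and 2.67, 0.460 and 2.49 CPM with JQ1, against 8.49, 9.73 and 9.57 CPM with DMSO. XAF1 fell by 1.86 ± 0.27, 1.34 ± 0.26 and 2.31 ± 0.28 log2 (edgeR adjusted p = 7.9e-08, 4.2e-05 and 7.9e-10). Some genes at the lowest levels were called with some compounds only. CMPK2, a mitochondrial nucleotide kinase, and USP18, which removes ISG15 from proteins and restrains interferon receptors, fell with TRAP-1-NegP (−1.61 ± 0.55 and −1.26 ± 0.40) and JQ1 (−1.72 ± 0.55 and −1.31 ± 0.40). The CMPK2 call with JQ1 was lost without JQ1 library 1, and with TRAP-1-NegP both calls were lost without its library 2 or DMSO library 3, that of CMPK2 also without DMSO library 1. USP18 had 1.21, 3.59 and 1.43 CPM with TRAP1, 1.81, 0.625 and 2.29 CPM with TRAP-1-NegP and 1.47, 1.07 and 1.95 CPM with JQ1, against 4.10, 2.46 and 4.59 CPM with DMSO. CMPK2 had 0.583, 0.966 and 1.14 CPM with TRAP1, 0.804, 0.268 and 0.782 CPM with TRAP-1-NegP and 0.326, 0.766 and 0.599 CPM with JQ1, against 2.37, 1.09 and 2.15 CPM with DMSO. With TRAP1 the log2 changes of CMPK2 and USP18 were −1.06 ± 0.53 and −0.83 ± 0.39 and were not called. RSAD2, the viperin gene next to CMPK2 on chromosome 2, fell with TRAP1 (−1.38 ± 0.35) and was not called with the other compounds. SAMD9L, an antiviral relative of SAMD9, had 1.70, 2.85 and 2.00 CPM with TRAP1, 1.86, 2.06 and 1.32 CPM with TRAP-1-NegP and 1.25, 3.83 and 3.44 CPM with JQ1, against 6.51, 4.70 and 3.51 CPM with DMSO. It fell with TRAP1 (−1.16 ± 0.29), TRAP-1-NegP (−1.48 ± 0.30) and JQ1 (−0.78 ± 0.29), where the groups overlapped and the call was lost at −0.43 without JQ1 library 1, and also without DMSO library 1.

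ISG15 encodes a ubiquitin-like modifier that is joined to target proteins by the conjugating enzyme UBE2L6 and the ligases HERC5 and TRIM25. It had 238, 284 and 265 CPM with TRAP1 at 4 h, 235, 220 and 215 CPM with TRAP-1-NegP and 209, 198 and 216 CPM with JQ1, against 120, 138 and 133 CPM with DMSO. ISG15 rose by 1.02 ± 0.08, 0.78 ± 0.08 and 0.68 ± 0.08 log2, with no overlap between groups. UBE2L6 had 8.16, 8.14 and 8.86 CPM with TRAP1, 9.75, 11.4 and 8.91 CPM with TRAP-1-NegP and 7.02, 11.4 and 8.93 CPM with JQ1, against 12, 18.9 and 17.6 CPM with DMSO. No library of these compounds reached the lowest DMSO level, and UBE2L6 fell by 0.95 ± 0.19 with TRAP1, by 0.69 ± 0.19 with TRAP-1-NegP and by 0.82 ± 0.19 with JQ1. TRIM25 rose with the same compounds (0.20, 0.37 and 0.44, each ± 0.07), and HERC5 rose with JQ1 (0.39 ± 0.12). The HERC5 call rests on library 2 of JQ1, without which the change was 0.22 and was not called, and the TRIM25 call with TRAP1 was lost without TRAP1 library 1 or DMSO library 2.

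PARP9 and DTX3L form a complex that ADP-ribosylates and ubiquitinates proteins and supports interferon signalling, and their genes lie head to head on chromosome 3 with overlapping ends, so part of their reads could be assigned to either. DTX3L had 19.0, 15.4 and 14.7 CPM with TRAP1 at 4 h, 27.1, 23.8 and 24.6 CPM with TRAP-1-NegP and 20.2, 22.8 and 17.5 CPM with JQ1, against 63.9, 56.5 and 55.3 CPM with DMSO. It fell by 1.84 ± 0.11, 1.22 ± 0.10 and 1.54 ± 0.11 log2 (edgeR adjusted p = 3.8e-21, 1.7e-14 and 2.4e-18), and the highest compound library was under the lowest DMSO library by a wide margin. PARP9 had 18.7, 12.9 and 10.9 CPM with TRAP1, 19.6, 17.2 and 17.5 CPM with TRAP-1-NegP and 15.6, 13.4 and 13.8 CPM with JQ1, against 24.8, 28.4 and 30.7 CPM with DMSO. It fell by 0.98 ± 0.13, 0.63 ± 0.13 and 0.97 ± 0.13 log2. PARP14, which lies in the same region further along the chromosome, had 29.2, 27.8 and 30.6 CPM with TRAP1, 35.4, 29.4 and 38.9 CPM with TRAP-1-NegP and 37.7, 46.5 and 40.6 CPM with JQ1, against 40.6, 38.8 and 36.7 CPM with DMSO. It fell with TRAP1 (−0.41 ± 0.10) and was not called with TRAP-1-NegP (−0.16) or JQ1 (0.11).

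**Figure D3:**
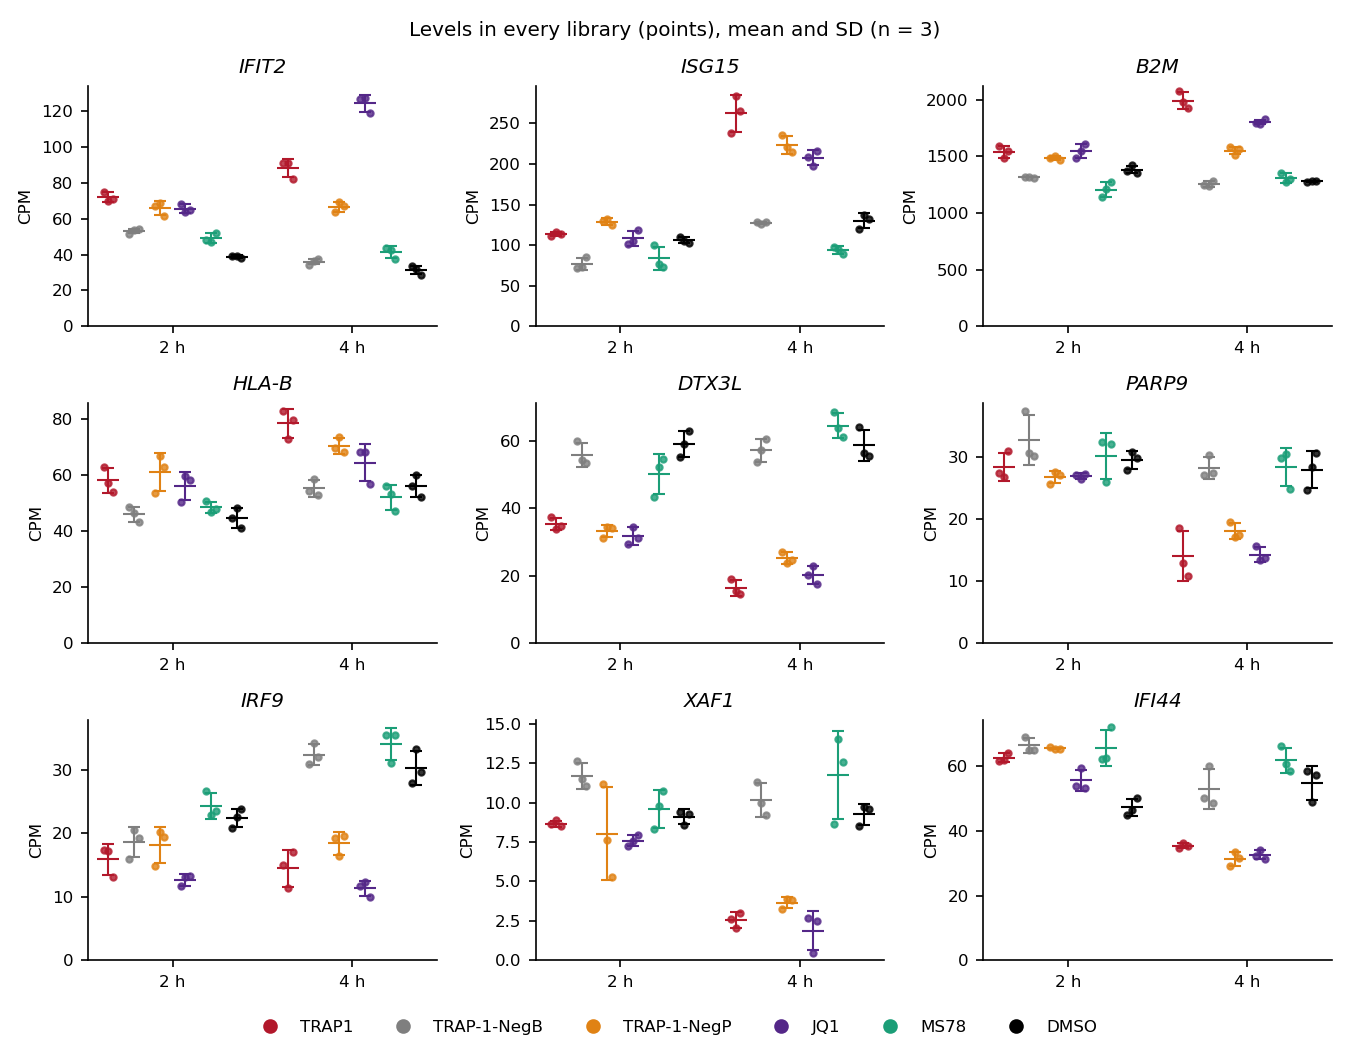
CPM of 9 interferon-stimulated genes in every library (points) with mean and SD (n = 3), compounds at left and DMSO at right within each time. IFIT2, ISG15 and B2M stand above DMSO and DTX3L, PARP9, IRF9 and XAF1 below it at 4 h with TRAP1, TRAP-1-NegP and JQ1, and IFI44 is above DMSO at 2 h and below it at 4 h with the same compounds.

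Of 6 genes of class I antigen presentation among the 48, 4 rose and 1 fell with TRAP1 at 4 h. With TRAP-1-NegP 3 rose and 1 fell, and with JQ1 1 rose and 1 fell. Of all genes tested, 22.2% were called higher and 24.5% lower with TRAP1, 18.6% and 18.9% with TRAP-1-NegP and 24.3% and 24.6% with JQ1. B2M, the light chain shared by all class I molecules and the most abundant of the 48 genes (median 2671 TPM in DMSO libraries), had 2073, 1980 and 1922 CPM with TRAP1 at 4 h, 1578, 1514 and 1561 CPM with TRAP-1-NegP and 1791, 1788 and 1825 CPM with JQ1, against 1272, 1286 and 1278 CPM with DMSO. It rose by 0.64 ± 0.04, 0.28 ± 0.04 and 0.49 ± 0.04 log2 (edgeR adjusted p = 1.8e-18, 4.8e-07 and 2e-14). HLA-B had 83.0, 72.8 and 79.4 CPM with TRAP1, 69.6, 73.7 and 68.2 CPM with TRAP-1-NegP and 68.3, 68.1 and 56.9 CPM with JQ1, against 56.0, 59.9 and 52.1 CPM with DMSO. TRAP1 and TRAP-1-NegP stood above DMSO in every library, and JQ1 overlapped with it. The heavy-chain genes HLA-B and HLA-C rose with TRAP1 (0.48 ± 0.09 and 0.38 ± 0.08) and TRAP-1-NegP (0.33 ± 0.09 and 0.25 ± 0.08) and were not called with JQ1. These 2 genes are close in sequence, and the division of reads between them is an estimate. TAP1, a subunit of the peptide transporter, had 45.4, 62.0 and 66.5 CPM with TRAP1, against 39.2, 43.7 and 47.6 CPM with DMSO. TAP1 rose by 0.41 ± 0.11, although its groups overlapped through TRAP1 library 1. PSMB8, an immunoproteasome subunit beside TAP1 on chromosome 6, fell instead with TRAP1 (−0.35 ± 0.11), TRAP-1-NegP (−0.35 ± 0.11) and JQ1 (−0.65 ± 0.11). The PSMB8 call was lost without TRAP1 library 1 or 3, and with TRAP-1-NegP without its library 1. PSMB9, another immunoproteasome subunit there, had 12.1, 13.9 and 10.7 CPM with TRAP1, 7.03, 13.6 and 7.40 CPM with TRAP-1-NegP and 8.05, 5.47 and 9.98 CPM with JQ1, against 11.2, 11.8 and 11.9 CPM with DMSO, and was not called.

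Neither of the genes for the RNA helicases MDA5 and RIG-I, which detect viral RNA in the cytoplasm, was called. IFIH1, the MDA5 gene, had 13.2, 12.2 and 11.9 CPM with TRAP1 at 4 h, 7.39, 10.3 and 10.8 CPM with TRAP-1-NegP and 8.21, 11 and 9.08 CPM with JQ1, against 11, 10.5 and 10.1 CPM with DMSO. DDX58, the RIG-I gene, had 28.5, 28.7 and 18 CPM with TRAP1, 21.6, 18.5 and 21.9 CPM with TRAP-1-NegP and 23.1, 27.3 and 24.5 CPM with JQ1, against 22.6, 25 and 24.7 CPM with DMSO. This held for every compound at both times, also for EIF2AK2, the kinase PKR that halts translation on double-stranded RNA. EIF2AK2 had 12.1, 15.5 and 14.8 CPM with TRAP1, 15.8, 18.4 and 20.4 CPM with TRAP-1-NegP and 18.2, 19.5 and 19.1 CPM with JQ1, against 21.5, 12.3 and 14.8 CPM with DMSO, a spread within DMSO that took in most of the other libraries. ADAR, which edits adenosine in double-stranded RNA and so keeps it from being sensed, had 114, 113 and 111 CPM with TRAP1, 134, 141 and 149 CPM with TRAP-1-NegP and 138, 130 and 136 CPM with JQ1, against 182, 167 and 157 CPM with DMSO. It fell by 0.58 ± 0.06, 0.26 ± 0.06 and 0.32 ± 0.06 log2.

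Of the remaining genes, IFI44L fell at 4 h with TRAP1 (−0.97 ± 0.21), TRAP-1-NegP (−1.12 ± 0.22) and JQ1 (−0.87 ± 0.21). HERC6, a relative of HERC5, fell with TRAP1 (−0.36 ± 0.14) and TRAP-1-NegP (−0.44 ± 0.14), and ISG20, an exonuclease, fell with JQ1 (−0.80 ± 0.17). The ISG20 call with TRAP1 (−0.39 ± 0.17) came to −0.22 and was lost without TRAP1 library 1, and was also lost in 9 other fits. The HERC6 calls were lost in 4 fits without a single library with TRAP1 and in 2 with TRAP-1-NegP. IFI35, DDX60, IFI6 and SAMD9 were not called with these 3 compounds, with log2 changes between −0.32 and 0.24.

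Levels of the genes in DMSO libraries spanned a wide range. Their order per length ran from B2M, IFI27 and ISG15 (medians of 2671, 560 and 410 TPM) through HLA-C and BST2 (188 and 142 TPM) to RSAD2, CMPK2 and SAMD9L (1.65, 1.46 and 1.35 TPM). The 13 genes that rose with TRAP1 at 4 h had DMSO levels of 7.65 to 2671 TPM with a median of 53.7, the 20 that fell had 1.35 to 68.8 TPM with a median of 13.8, and the 14 not called had a median of 11.8 TPM. The ranges overlap, and these groups were formed from the same libraries, so they are a description.

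At 2 h the changes were fewer and smaller. With TRAP1 7 genes rose and 9 fell (15.7% and 14.3% of all genes), with TRAP-1-NegP 8 rose and 7 fell (16.4% and 13.9%), and with JQ1 5 rose and 6 fell (14.8% and 13.9%). None of the 47 changed by more than 2-fold with an adjusted p under 0.05 for any compound at this time. IFIT2 had 75.1, 69.9 and 70.9 CPM with TRAP1, 67.2, 68.7 and 61.5 CPM with TRAP-1-NegP and 68.2, 63.7 and 64.5 CPM with JQ1, against 39.2, 39.3 and 38.1 CPM with DMSO. It had risen by 0.89 ± 0.08, 0.76 ± 0.08 and 0.75 ± 0.08 log2. DTX3L had 37.5, 33.9 and 34.6 CPM with TRAP1, 31.2, 34.5 and 34.1 CPM with TRAP-1-NegP and 29.5, 34.6 and 31.2 CPM with JQ1, against 55.1, 59.0 and 62.7 CPM with DMSO, and had fallen by 0.74 ± 0.10, 0.83 ± 0.10 and 0.89 ± 0.10. IFIT5 had 5.39, 4.83 and 5.17 CPM with TRAP1, 5.67, 6.03 and 4.63 CPM with TRAP-1-NegP and 5.40, 4.65 and 4.51 CPM with JQ1, against 9.34, 8.44 and 9.40 CPM with DMSO. TRIM21 had 6.90, 11.01 and 10.2 CPM with TRAP1, 8.12, 10.9 and 8.32 CPM with TRAP-1-NegP and 8.70, 7.73 and 9.37 CPM with JQ1, against 12.5, 14.5 and 16.9 CPM with DMSO. Neither gene had a compound library that reached the DMSO levels. IFIT5 (−0.82, −0.74 and −0.90, each ± 0.21) and TRIM21, a cytosolic antibody receptor and ubiquitin ligase (−0.65, −0.69 and −0.77, each ± 0.18), were lower as well. The TRIM21 call with TRAP1 was lost without TRAP1 library 1. IRF9 had 17.4, 17.3 and 13.1 CPM with TRAP1, 14.9, 20.2 and 19.4 CPM with TRAP-1-NegP and 11.6, 13.1 and 13.3 CPM with JQ1, against 20.9, 22.5 and 23.8 CPM with DMSO. It was called lower with JQ1 (−0.82 ± 0.14) and TRAP1 (−0.49 ± 0.14), where the call was lost without TRAP1 library 3.

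IFI44 and SP110 were higher at 2 h also with TRAP-1-NegB and MS78. IFI44, a cytoplasmic protein of interferon-treated cells, had 61.5, 61.8 and 64.0 CPM with TRAP1, 68.9, 64.9 and 64.9 CPM with TRAP-1-NegB, 65.6, 65.1 and 65.2 CPM with TRAP-1-NegP, 53.8, 59.3 and 53.3 CPM with JQ1 and 61.9, 62.4 and 71.9 CPM with MS78, against 44.8, 46.5 and 50.1 CPM with DMSO. All 15 compound libraries lay above the 3 DMSO libraries, and the log2 changes ran from 0.24 ± 0.09 with JQ1 to 0.49 ± 0.09 with TRAP-1-NegB. SP110, a nuclear body protein, had 12.4, 11.9 and 16.3 CPM with TRAP1, 13.9, 12.95 and 12.6 CPM with TRAP-1-NegB, 12.2, 16.2 and 15.8 CPM with TRAP-1-NegP, 10.7, 11.7 and 12.8 CPM with JQ1 and 15.5, 13.8 and 13.5 CPM with MS78, against 9.65, 9.37 and 9.08 CPM with DMSO. No DMSO library reached a compound library, and SP110 was called higher with TRAP1 (0.53 ± 0.16), TRAP-1-NegB (0.49 ± 0.16), TRAP-1-NegP (0.66 ± 0.16) and MS78 (0.61 ± 0.16), and not called with JQ1 (0.33). These comparisons all use the same 3 DMSO libraries of 2 h. In DMSO at 4 h against 2 h IFI44 stood at 0.22 ± 0.09 and SP110 at 0.37 ± 0.16, and neither was called. The IFI44 call with JQ1 was lost without any of 4 single libraries and with no count filter, and that of SP110 was lost with TRAP1 without its library 3 and with TRAP-1-NegB without any of 5 libraries.

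The change between 2 and 4 h was tested as the difference of the effects. Such a difference can come from the DMSO libraries as well as from those of the compound. With TRAP1 the effect over DMSO was higher at 4 h than at 2 h for 7 genes and lower for 11 (10.2% and 11.8% of all genes). The numbers were 6 and 10 with TRAP-1-NegP (11% and 12.2%) and 5 and 13 with JQ1 (13.2% and 12.8%). With TRAP-1-NegB the effect was higher for 2 and lower for 1 (1.87% and 0.607% of all genes), and with MS78 for 2 and 2 (6.89% and 8.33%). IFI44 moved from above DMSO to below it: at 4 h it had 34.6, 36.3 and 35.2 CPM with TRAP1, 29.0, 33.3 and 31.6 CPM with TRAP-1-NegP and 32.3, 34.1 and 31.2 CPM with JQ1, against 58.3, 48.8 and 57.1 CPM with DMSO. Its effect differed between the times by −1.04 ± 0.13, −1.28 ± 0.13 and −0.99 ± 0.13 log2 (edgeR adjusted p = 5.5e-09, 2.3e-11 and 1.6e-08). XAF1 was not called at 2 h with these compounds (−0.07, −0.19 and −0.26) and its effect differed by −1.79 ± 0.37, −1.15 ± 0.36 and −2.04 ± 0.38, the TRAP-1-NegP value being no longer called without library 1 of TRAP-1-NegP at 2 h. The ISG15 effect moved the other way, with a difference of 0.92 ± 0.11 with TRAP1, 0.50 ± 0.11 with TRAP-1-NegP and 0.65 ± 0.11 with JQ1. The DMSO libraries were not the same at both times: 8 of the 47 genes were higher and 2 lower at 4 h than at 2 h (11.4% and 9.45% of all genes), among them IRF9 (0.43 ± 0.14) and ISG15 (0.29 ± 0.08) higher and IFIT2 (−0.31 ± 0.08) and SAMD9 (−0.39 ± 0.12) lower. Without single DMSO libraries the number called between the times ran from 5 to 11, and the calls of IRF9, ISG15 and SAMD9 were each lost in at least 1 such fit.

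**Figure D4:**
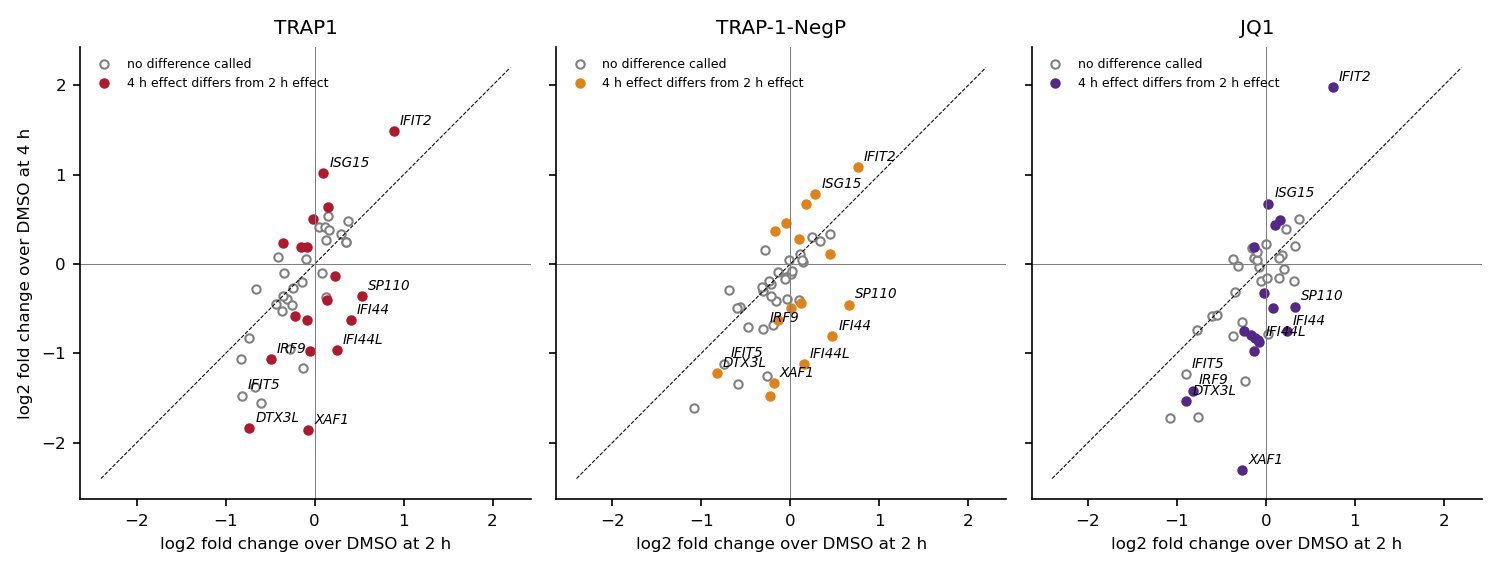
Log2 fold change over DMSO at 2 h (x axis) and 4 h (y axis) of the 47 genes with TRAP1, TRAP-1-NegP and JQ1. Filled points are genes whose effect differed between the times at an adjusted p under 0.05, and the dashed line marks equal effects. XAF1 lies near 0 on the x axis and far below 0 on the y axis, IFI44 and SP110 lie right of 0 and below 0, and IFIT2 lies above the line.

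TRAP-1-NegB and MS78 moved fewer of these genes at 4 h than TRAP1, TRAP-1-NegP or JQ1, by the counts called. With TRAP-1-NegB at 2 h 4 were higher and 5 lower (5.08% and 5.87% of all genes). IFI44 and SP110 were among those higher, and IFI6 and ISG15 had the largest falls. IFI6, a mitochondrial antiapoptotic protein, had 24.2, 27.6 and 29.2 CPM with TRAP-1-NegB, against 42.4, 42.3 and 42.1 CPM with DMSO, a change of −0.64 ± 0.10 log2. ISG15 had 72.5, 73.7 and 85.6 CPM with TRAP-1-NegB, against 111, 106 and 103 CPM with DMSO, a change of −0.46 ± 0.08. At 4 h none of the 47 was called with TRAP-1-NegB by edgeR or by the DESeq2 Wald test, and 5 had an unadjusted p under 0.05, where 0.827% of all genes were called higher and 0.2% lower. The 95% interval of the TRAP-1-NegB effect at 4 h was 0.03 to 0.36 log2 for IFIT2, −0.23 to 0.17 for DTX3L and −0.18 to 0.13 for ISG15. With MS78 at 2 h 6 were higher and 5 lower (8.3% and 7.65% of all genes), and at 4 h 4 were higher and 3 lower (6.23% and 9.05%). The 11 calls at 2 h came to 2 when the fit held only the MS78 and DMSO libraries of that time. IFI6 had 28.96, 31.5 and 28.5 CPM with MS78 at 2 h, against 42.4, 42.3 and 42.1 CPM with DMSO, and fell there (−0.51 ± 0.10). ISG15 had 97.6, 95.6 and 88.9 CPM with MS78 at 4 h, against 120, 138 and 133 CPM with DMSO. It fell by 0.47 ± 0.08 log2 there, the opposite direction to TRAP1, TRAP-1-NegP and JQ1. IFIT2 had 43.8, 42.7 and 37.5 CPM with MS78 at 4 h, against 33.6, 31.7 and 28.9 CPM with DMSO. It rose with MS78 at both times (0.34 ± 0.08 and 0.40 ± 0.08; the 2 h call was lost in that smaller fit), and SAMD9, a growth-restraining antiviral factor, rose at 4 h (0.49 ± 0.12), with 73.5, 72.3 and 72.8 CPM with MS78, against 58.1, 50.1 and 47.5 CPM with DMSO. IFI6 had 36.7, 34.6 and 33.5 CPM with MS78 at 4 h, against 38.8, 47.1 and 51.2 CPM with DMSO, and fell (−0.39 ± 0.10), a call lost without DMSO library 2 or 3. IRF1 had 78.4, 67.2 and 49.7 CPM with MS78 at 2 h, against 51.4, 49.1 and 52.1 CPM with DMSO, and these groups overlapped. At 2 h the calls of IRF1 (0.36) and BST2 (0.26) with MS78 were lost without MS78 library 1, at 0.20 and 0.14.

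TRAP1 was also compared directly with other compounds at matched dose and time, in 10 comparisons that include JQ1 against TRAP-1-NegP, each adjusted over all genes. After 2 h no gene of the 47 was called between TRAP1 and TRAP-1-NegP by edgeR or the DESeq2 Wald test, with 8 at an unadjusted p under 0.05, and 0.527% of all genes were called higher and 0.274% lower. The 95% interval of that difference was −0.03 to 0.29 log2 for IFIT2, −0.12 to 0.30 for DTX3L and −0.52 to 0.36 for IFIT5. Against JQ1 at 2 h, OAS3 was lower with TRAP1 (−0.39 ± 0.11, edgeR adjusted p = 0.044) and no other was called (1.1% higher and 0.887% lower of all genes). That OAS3 call was lost without library 1 or 2 of JQ1, without library 1 or 3 of TRAP1 and with length-scaled counts. Against TRAP-1-NegB 7 were higher and 3 lower at 2 h (11.6% and 9.13%) and 14 higher and 22 lower at 4 h (22% and 24.2%). Against MS78 4 were higher and 7 lower at 2 h (12% and 10.6%) and 12 higher and 20 lower at 4 h (23.9% and 25.4%).

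At 4 h TRAP1 and TRAP-1-NegP differed in 8 genes, 5 of them higher and 3 lower with TRAP1 (7.25% and 8.09% of all genes). Without both libraries that stood apart, of which TRAP1 library 1 is in this comparison, the count was 15. B2M (0.36 ± 0.04) and IFIT2 (0.41 ± 0.08) were higher with TRAP1, and no library of the 2 groups overlapped. DTX3L (−0.62 ± 0.11), ADAR (−0.32 ± 0.06) and OASL (−0.27 ± 0.07) were lower. TAP1 was higher (0.49 ± 0.11), with 45.4, 62.0 and 66.5 CPM with TRAP1 against 37.0, 40.8 and 45.8 CPM with TRAP-1-NegP, so that the groups overlapped in 1 library. ISG15 (0.23 ± 0.08) and IFIT3 (0.30 ± 0.10) were called higher, and both calls were lost in several fits without single libraries. For XAF1, IRF9 and PARP9 the difference missed the threshold, and its 95% interval ran from −1.09 to 0.04, from −0.63 to −0.06 and from −0.62 to −0.08 log2.

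TRAP1 and JQ1 differed in 18 genes at 4 h, 11 higher and 7 lower with TRAP1 (12.5% and 14.9% of all genes). IRF1 had 51.2, 48.9 and 55.2 CPM with TRAP1, against 33.1, 34.6 and 31.4 CPM with JQ1, a difference of 0.65 ± 0.11 log2 (edgeR adjusted p = 3.3e-06). Of the 6 class I genes among the 48, 5 were higher with TRAP1 than with JQ1: TAP1 by 0.57 ± 0.11, HLA-C by 0.32 ± 0.08, PSMB8 by 0.30 ± 0.11, HLA-B by 0.28 ± 0.09 and B2M by 0.15 ± 0.04. PSMB9 was not called (0.65 ± 0.26), and of 13 other class I genes 4 were higher and 3 lower. The PSMB8 call was lost in 4 fits without a single library. IFI27, a mitochondrial protein of the interferon response (0.53 ± 0.08), and BST2, the tetherin that holds virions at the cell surface (0.39 ± 0.08), were higher as well. IFIT2 (−0.49 ± 0.08) and PARP14 (−0.51 ± 0.10) were lower with TRAP1 than with JQ1. The HLA-B call was lost without JQ1 library 3 or TRAP1 library 1. For PARP9 and STAT2 the 95% interval of the difference ran from −0.28 to 0.27 and from −0.19 to 0.25 log2.

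JQ1 and TRAP-1-NegP differed in 10 genes at 2 h, 5 in each direction (5.65% higher and 7.26% lower of all genes), and in 14 at 4 h, 6 higher and 8 lower with JQ1 (12.9% in each direction). Leaving out library 1 or 2 of JQ1, or library 1 or 2 of TRAP-1-NegP, took the 2 h count to 6, 5, 5 and 6. Leaving out JQ1 library 2, or TRAP-1-NegP library 1 or 2, took the 4 h count to 7, 9 and 8. At 4 h IFIT2 was higher with JQ1 by 0.90 ± 0.08 log2, and IRF9 (−0.70 ± 0.14) and XAF1 (−0.97 ± 0.29) were lower. The XAF1 difference came to −0.51 without JQ1 library 2, the library with 0.460 CPM, and was then not called.

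**Figure D5:**
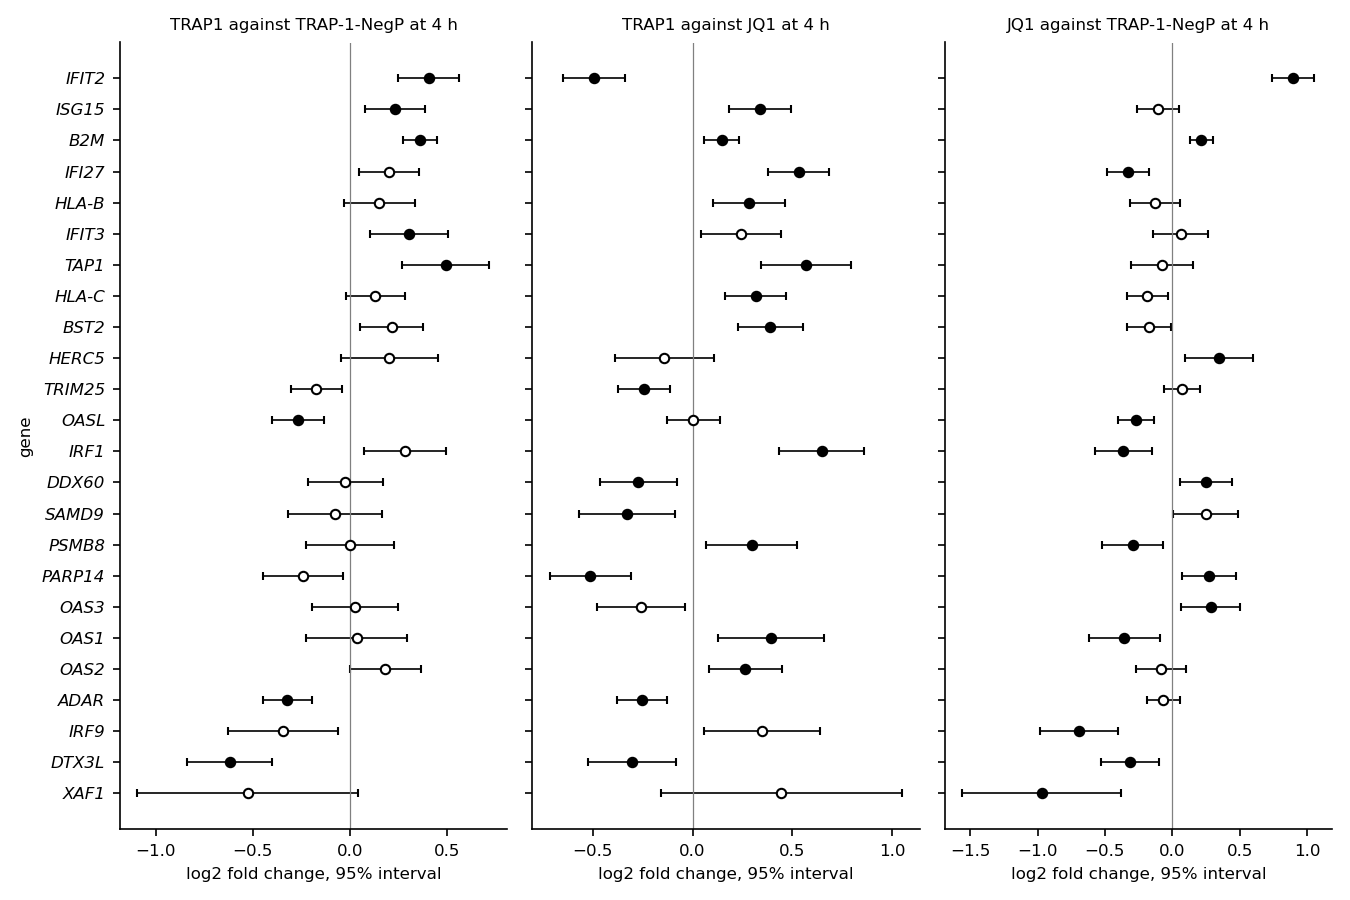
Differences between compounds at 4 h on the log2 scale with 95% intervals, for the 24 genes called in at least 1 of the 3 comparisons shown. Filled points have an adjusted p under 0.05. IFIT2 is higher with TRAP1 than with TRAP-1-NegP, lower with TRAP1 than with JQ1, and highest with JQ1.

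The rest of the pathway was read from lists of genes that are not among the 48. These lists were chosen with earlier results of these data known, so their counts are a description. Of 10 interferon genes none passed the count filter: IFNL1, a type III interferon, reached at most 20 counts and IFNB1 at most 4 in any library. Among libraries of TRAP1, TRAP-1-NegP or JQ1 at 4 h the 10 genes summed to 0 to 4 counts, or 7 in JQ1 library 3. The sums were 1, 0 and 1 with MS78, 6, 8 and 9 with TRAP-1-NegB and 9, 7 and 23 with DMSO. These levels are too low to test. The shares of all genes called higher and lower at 4 h were 22.2% and 24.5% with TRAP1, 18.6% and 18.9% with TRAP-1-NegP and 24.3% and 24.6% with JQ1. Of 14 genes for nucleic acid sensing upstream of interferon, 0 rose and 12 fell with TRAP1 at 4 h (list median −0.63), 0 rose and 11 fell with TRAP-1-NegP (−0.45) and 0 rose and 10 fell with JQ1 (−0.60). IKBKE, a kinase that activates IRF3, fell by 1.19 ± 0.16, 1.28 ± 0.16 and 1.20 ± 0.16 log2 with these compounds. MAVS, the mitochondrial adaptor of both RNA sensors, had 126, 105 and 111 CPM with TRAP1, 125, 131 and 133 CPM with TRAP-1-NegP and 104, 106 and 111 CPM with JQ1, against 173, 170 and 176 CPM with DMSO. MAVS fell by 0.60 ± 0.07, 0.42 ± 0.07 and 0.69 ± 0.07 log2, MYD88, the adaptor of most Toll-like receptors, by 0.71 ± 0.08, 0.38 ± 0.08 and 0.51 ± 0.08, and IRF3 by 0.46 ± 0.09, 0.32 ± 0.09 and 0.64 ± 0.09. With MS78 at 4 h 1 of the 14 rose and 1 fell, and with TRAP-1-NegB 0 were called.

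Of 16 receptors, kinases, STAT partners and feedback genes, 4 rose and 7 fell with TRAP1 at 4 h, and 5 rose and 6 fell with TRAP-1-NegP and with JQ1. Over all genes, 22.2% were higher and 24.5% lower with TRAP1, 18.6% and 18.9% with TRAP-1-NegP and 24.3% and 24.6% with JQ1, for this list and for those that follow. SOCS1, the feedback inhibitor of JAK kinases, had 16.1, 17.6 and 16.8 CPM with TRAP1, 14.3, 17.2 and 16.6 CPM with TRAP-1-NegP and 20.2, 24.8 and 21 CPM with JQ1, against 2.17, 3.66 and 5.56 CPM with DMSO. It rose by 2.15 ± 0.25, 2.07 ± 0.25 and 2.53 ± 0.25 log2, and SOCS3, which binds the same kinases, by 0.95 ± 0.14, 1.07 ± 0.14 and 1.41 ± 0.14. IFNGR2, a subunit of the interferon gamma receptor, fell by 1.00 ± 0.10, 0.62 ± 0.10 and 1.25 ± 0.10, and IRF2, an antagonist of IRF1, fell by 1.25 ± 0.17, 1.01 ± 0.17 and 1.28 ± 0.17. Of 13 other class I genes 7 rose and 1 fell with TRAP1, 6 and 0 with TRAP-1-NegP and 6 and 1 with JQ1. HLA-E rose by 0.88 ± 0.05, 0.90 ± 0.05 and 0.80 ± 0.05. Calreticulin, CALR, a chaperone of class I and many other glycoproteins, rose by 0.63 ± 0.05, 0.49 ± 0.05 and 0.36 ± 0.05. Of 30 other interferon-inducible genes 8 rose and 10 fell with TRAP1, 5 and 14 with TRAP-1-NegP and 5 and 15 with JQ1. ZC3HAV1, the zinc-finger antiviral protein ZAP, rose by 1.31 ± 0.08, 0.84 ± 0.08 and 1.33 ± 0.08, and APOL6 fell by 1.04 ± 0.16, 0.98 ± 0.16 and 1.20 ± 0.16. Of 3 BET genes, 2 rose and 1 fell with TRAP1 at 4 h, and 2 rose and 0 fell with TRAP-1-NegP and with JQ1. BRD2 among them rose by 1.77 ± 0.05, 1.67 ± 0.05 and 1.78 ± 0.05 with the same compounds.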

How the data were processed

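BxPC-3 polyadenylated RNA from 36 libraries, 3 in each of 12 groups of compound and time, was grouped by the labels. Per the submitters' processing notes, the authors used nf-core/rnaseq 3.18.0 with Salmon 1.10.3 on hg38, while no annotation release or strand setting is named there. The deposited estimated counts per gene (expected counts, not whole) were rounded here, and the deposited TPM values served only to order genes by level and to read markers. Genes were filtered with filterByExpr (minimum count 10), scaled by TMM and fitted with edgeR 4.0.16 (R 4.3.3) as 12 group means with a robust quasi-likelihood test, over all 36 libraries, with Benjamini-Hochberg adjustment over 14988 genes within each comparison and a threshold of 0.05. The procedure was tested on simulated data with changes put into few genes of a single group. That test did not cover changes over as many genes as were called here at 4 h. Totals of 15288688 to 26608325 counts limit the precision of genes at a few CPM. The 48 genes and the pathway lists were chosen with earlier results of these data known. Values in every library are given for a panel of the 48 genes by role and for the 4 largest called changes of each compound, and other pathway genes are named from the lists, by adjusted p. Libraries of a group differed by more than sampling noise (chi-square per degree of freedom 4.401 to 42.95), so none was merged. Replicate numbers did not pair the libraries (correlations of −0.081 to 0.07 over 198 pairs). Promoter windows are from RefSeq (GRCh38.p14). Alternatives were DESeq2 size factors, the DESeq2 1.42.0 Wald test, no or a stricter count filter, length-scaled counts, a replicate block, only the groups compared, omitting both aberrant libraries together, and omitting each library in turn.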

Additional observations from a re-analysis of the deposited data

Results flagged for a closer look

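For 59 combinations of gene and compound the effect over DMSO differed between 4 h and 2 h by the edgeR test of that difference at an adjusted p under 0.05. Values are the log2 effect at 4 h minus that at 2 h. With TRAP1 the difference was positive for ISG15 (0.92), IFIT2 (0.60), IFI6 (0.59), IFI27 (0.52), B2M (0.49), OASL (0.35) and TRIM25 (0.28). It was negative with TRAP1 for XAF1 (−1.79), IFI44L (−1.22), DTX3L (−1.10), IFI44 (−1.04), PARP9 (−0.92), SP110 (−0.89), IRF9 (−0.57), PARP14 (−0.55), MX2 (−0.55), DDX60 (−0.36) and ADAR (−0.36). With TRAP-1-NegP it was positive for TRIM25 (0.54), OASL (0.51), ISG15 (0.50), STAT2 (0.50), IFIT2 (0.33) and B2M (0.18). It was negative with TRAP-1-NegP for IFI44 (−1.28), IFI44L (−1.27), SAMD9L (−1.26), XAF1 (−1.15), SP110 (−1.11), HERC6 (−0.56), OAS1 (−0.51), PARP9 (−0.49), DTX3L (−0.40) and BST2 (−0.33). With JQ1 it was positive for IFIT2 (1.23), ISG15 (0.65), TRIM25 (0.34), B2M (0.33) and OASL (0.32). It was negative with JQ1 for XAF1 (−2.04), IFI44 (−0.99), PARP9 (−0.84), SP110 (−0.80), IFI44L (−0.80), OAS1 (−0.77), UBE2L6 (−0.71), DTX3L (−0.65), OAS2 (−0.62), IRF9 (−0.60), MX2 (−0.58), IRF1 (−0.50) and ADAR (−0.31). With TRAP-1-NegB it was positive for IFI6 (0.55) and ISG15 (0.43) and negative for IFI44 (−0.55). With MS78 it was positive for SAMD9 (0.52) and B2M (0.23) and negative for HLA-C (−0.38) and OASL (−0.35). Without library 1 of TRAP1 at 4 h the DDX60 difference was −0.38 and no longer called, and it was lost in 11 other fits. Without library 1 of MS78 at 2 h the MS78 differences were 0.31 for SAMD9 and −0.23 for HLA-C, and neither was called. All of these share the DMSO libraries of both times, and a change in DMSO enters each difference with the opposite sign. From 2 to 4 h DMSO itself rose for UBE2L6 (0.58), IRF9 (0.43), BST2 (0.39) and HLA-C (0.35). It fell for SAMD9 (−0.39) and IFIT2 (−0.31). These shifts run against the differences listed for those genes. In DMSO ISG15 rose (0.29), the same way as its differences, and XAF1 (0.03) and DTX3L (−0.01) were not called.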

How the results depend on the processing

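None of the 369 called values reversed under any alternative, but calls were lost under each of them. Of 2568 values from fits without a single library, 356 were no longer called. Of the 369, 35 were lost with only the groups compared, 22 with no count filter and 18 with length-scaled counts. DESeq2 size factors lost 12, leaving out both libraries that stood apart 10, the Wald test 5 and the stricter filter 2. The replicate block changed no count of calls by over 1.5 times, and 7 single values missed the threshold under it. Fitting only the groups compared gave 14 calls in place of 9 for TRAP-1-NegB at 2 h, 21 in place of 11 for JQ1 at 2 h, 2 in place of 11 for MS78 at 2 h, and 1 in place of 0 for TRAP-1-NegB at 4 h. The same fit gave 17 in place of 10 for TRAP1 against TRAP-1-NegB, 4 in place of 0 for TRAP1 against TRAP-1-NegP, 5 in place of 1 for TRAP1 against JQ1, 6 in place of 11 for TRAP1 against MS78 and 16 in place of 10 for JQ1 against TRAP-1-NegP, all at 2 h, and 0 in place of 4 for the MS78 time difference. Without both libraries that stood apart there were 2 calls for TRAP-1-NegB at 4 h, 2 for TRAP1 against TRAP-1-NegP and 4 for TRAP1 against JQ1 at 2 h, 15 in place of 8 for TRAP1 against TRAP-1-NegP at 4 h, and time differences of 5 in place of 3 for TRAP-1-NegB and 2 in place of 4 for MS78. With no count filter TRAP-1-NegB at 4 h had 1, TRAP1 against TRAP-1-NegP at 2 h had 1 and TRAP1 against JQ1 at 2 h had 3. Length-scaled counts gave 1 and 0 for these last comparisons, and the Wald test gave 5 for TRAP1 against JQ1 at 2 h. Leaving out single libraries gave 0 to 2 calls for TRAP1 against JQ1 at 2 h, 5 to 11 and 7 to 12 for JQ1 against TRAP-1-NegP at 2 and 4 h, 1 to 3, 9 to 14 and 1 to 8 for the time differences of TRAP-1-NegB, TRAP-1-NegP and MS78, and 5 to 11 for DMSO between the times. The cause of these differences was not tested, and the smaller fits also held fewer samples. Changes in genes at a few CPM, such as CMPK2 and USP18, are limited by depth.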
